A study of Homo sapiens with 6 samples.

Results

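The genes described here encode protease-activated receptors, proteins that start or restrain blood coagulation, and a relative of TFPI: F2R, F2RL1, F2RL2, F3, THBD, TFPI, TFPI2 and PROCR. They were measured in MDA-MB-231, an established line of ER-negative breast cancer cells, transfected with control siRNA (3 arrays) or with an siRNA against LSD1 (3 arrays). Both groups were taken after 6 days and 2 rounds of transfection, as biological replicates of 1 cell line. The labels give no siRNA sequence, and with these groups an effect of the LSD1 siRNA on other transcripts and an effect of losing LSD1 cannot be told apart. Batches are not named in the labels. All probe sets (groups of array oligonucleotides that report 1 transcript region) assigned to exactly 1 of the 8 symbols were taken, which gave 16 probe sets for 7 genes, of 41091 probe sets for 19775 genes on the array. F2RL1 has no probe set in the annotation used and was not analysed here. The genes were chosen by function with their log2 changes between LSD1 siRNA and control arrays already known, so these values took part in the choice. The changes below are a description and support nothing beyond themselves.

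Protease-activated receptors are G protein-coupled receptors that carry their own ligand: a protease cuts the outer end of the receptor, and the new end folds back and activates it. F2R, F2RL1 and F2RL2 encode members of this family, and thrombin is the classical activator of F2R. F3 encodes tissue factor, the membrane protein that binds factor VII and starts coagulation. TFPI inhibits the complex of tissue factor with factor VII together with factor X, while TFPI2, a relative of TFPI, inhibits plasmin and other proteases of the matrix. THBD, thrombomodulin, binds thrombin and turns it towards protein C, and PROCR, the endothelial protein C receptor, presents protein C to that complex. Tissue factor and F2R are well studied in breast cancer cells, and MDA-MB-231 is often used as a line rich in tissue factor.

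The targeted gene was checked first. KDM1A, which encodes LSD1, had signals of 2443 ± 130 with control siRNA and 234 ± 53.6 with LSD1 siRNA (SD, n = 3 each), with no overlap between the groups, as the labels of all 6 arrays say. Every array had a trimmed mean signal of 500.1 as deposited, and arrays carry no read depth, so their number limits the precision. VIM and LGALS1, the brightest of 10 MDA-MB-231 markers, had control signals of 32798 ± 4856 and 27322 ± 5148 (SD, n = 3). The dimmest of the 10, SPARC, was at 19.7 ± 13.2 in the controls. The luminal breast markers KRT18 and KRT19 were bright there too, at 16731 ± 2339 and 5070 ± 407 (SD, n = 3). KRT18 was read on a probe set with the x suffix, which marks possible cross-hybridisation. The dimmest of the 12 luminal markers in the controls were ESR1 and PGR, at 59.1 ± 6.65 and 60.7 ± 13.4 (SD, n = 3). Of the 10 MDA-MB-231 markers 3 were higher with LSD1 siRNA, MSN (0.60) and MSLN (0.70) among them, and 1 lower. Of 12 luminal breast markers 3 were higher, TFF1 (1.08) and KRT19 (0.42) among them, and 2 lower, KRT18 (-0.45) among them (log2 changes that passed the limma test explained below). The shares that passed were 40% and 41.7%, near the 41.0% of all genes tested, so the counts show nothing particular to these markers.

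Sequences of 250 bases before the transcription start were taken from RefSeq (GRCh38.p14), which here holds 5 of the 7 measured genes: F2RL2, F3, TFPI, TFPI2 and PROCR. TFPI is described without its sequence, and the others are printed, because F2RL2 and PROCR had the largest changes and F2RL2, F3 and TFPI2 share a motif. Capitals mark matches, on either strand, to 7 motifs. The TATA box was searched as TATAAA. The site of AP-1, the dimer of JUN and FOS proteins, was searched as TGANTCA. The GC box bound by Sp1 was taken to be GGGCGG, and the longer site of EGR1 to be GCGNGGGCG. Sites of ETS family factors were searched with the letters CCGGAA, and those of STAT factors, called GAS, with TTCNNNGAA. The NF-kappaB motif, given here by name, was searched too.
F2RL2 (chr5:76623404-76623653, minus strand): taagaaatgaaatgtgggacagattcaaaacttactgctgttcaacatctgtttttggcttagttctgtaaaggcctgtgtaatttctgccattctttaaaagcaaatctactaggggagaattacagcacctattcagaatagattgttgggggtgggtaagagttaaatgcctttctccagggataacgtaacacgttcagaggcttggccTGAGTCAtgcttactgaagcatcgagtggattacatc
F3 (chr1:94541760-94542009, minus strand): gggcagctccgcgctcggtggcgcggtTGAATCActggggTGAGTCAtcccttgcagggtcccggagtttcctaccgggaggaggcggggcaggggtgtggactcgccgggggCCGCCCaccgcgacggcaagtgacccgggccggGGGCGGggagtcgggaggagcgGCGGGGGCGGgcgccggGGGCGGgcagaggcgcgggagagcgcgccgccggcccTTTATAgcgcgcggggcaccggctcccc
TFPI2 (chr7:93890754-93891003, minus strand): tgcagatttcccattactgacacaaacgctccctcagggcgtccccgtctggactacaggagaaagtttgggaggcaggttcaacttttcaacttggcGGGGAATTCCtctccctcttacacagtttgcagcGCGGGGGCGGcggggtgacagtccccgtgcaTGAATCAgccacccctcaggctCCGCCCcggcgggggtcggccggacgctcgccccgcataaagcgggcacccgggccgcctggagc
PROCR (chr20:35171822-35172071, plus strand): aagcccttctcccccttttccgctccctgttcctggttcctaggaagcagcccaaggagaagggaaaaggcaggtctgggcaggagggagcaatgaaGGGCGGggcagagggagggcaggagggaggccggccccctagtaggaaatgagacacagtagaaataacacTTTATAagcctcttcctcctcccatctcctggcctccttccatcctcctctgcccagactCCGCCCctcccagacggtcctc
An AP-1 match lies 37 bases before the F2RL2 start, the only match of any of these motifs in that window. F3 has AP-1 matches at 223 and 210 bases, 4 GC boxes, an EGR1 match that overlaps the third GC box, and a TATA box at 28 bases. TFPI2 has an AP-1 match at 87 bases, an NF-kappaB match at 152 bases, an EGR1 match at 118 bases that overlaps a GC box, and another GC box. In PROCR, a TATA box lies at 82 bases and GC boxes at 153 and 22 bases, and the TFPI window holds none of the motifs. Among all 35116 promoter windows of the same length, 6.57% hold an AP-1 match, 5.21% an NF-kappaB match, 8.41% an EGR1 match, 42.6% a GC box, 10.7% a TATA box, 14.5% an ETS match and 6.57% a GAS match. The windows also differ in base composition: F3 has 34 CpG dinucleotides and TFPI2 20, while PROCR has 5, F2RL2 has 3 and TFPI has 2, against a median of 11 over all windows. A match is only a match of letters, and these arrays do not measure binding.

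Of the 16 probe sets, 14 were higher with LSD1 siRNA, none was lower (also none at an unadjusted limma p of 0.05), and the 2 that did not pass both belong to F2R. Counted by gene, with the brightest probe set of each (a set with the x suffix only where a gene has no other), 6 of the 7 measured genes rose. The threshold is a limma p adjusted by the Benjamini-Hochberg method of 0.05. Over the whole array it was passed in the higher direction by 17.0% of the 27079 probe sets tested and by 19.8% of the 13822 genes tested (17.4% and 21.3% in the lower direction, 34.4% and 41.0% in either). Since the set was proposed from this same comparison, nothing is read from that difference. Every LSD1 siRNA array lay above every control array for the same 14 probe sets and for 22.5% of all probe sets tested. Among the 14 is the dimmer F2RL2 set, with a control mean of 10.6. Only its LSD1 siRNA arrays, with a mean of 135, carried it past the filter on low signals, near 28.0. The filter thus favoured its place in both counts of 14, although it also passed with no filter (limma adjusted p = 0.000697). The count by gene uses the brighter F2RL2 set. The log2 changes below are of signal + 15, which understates the change of dim probe sets, and the ratios are of mean signals. In RNA from a whole culture, a changed share of cells of one kind and a changed amount of a transcript per cell cannot be told apart, for rises as for falls.

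**Figure D1:**
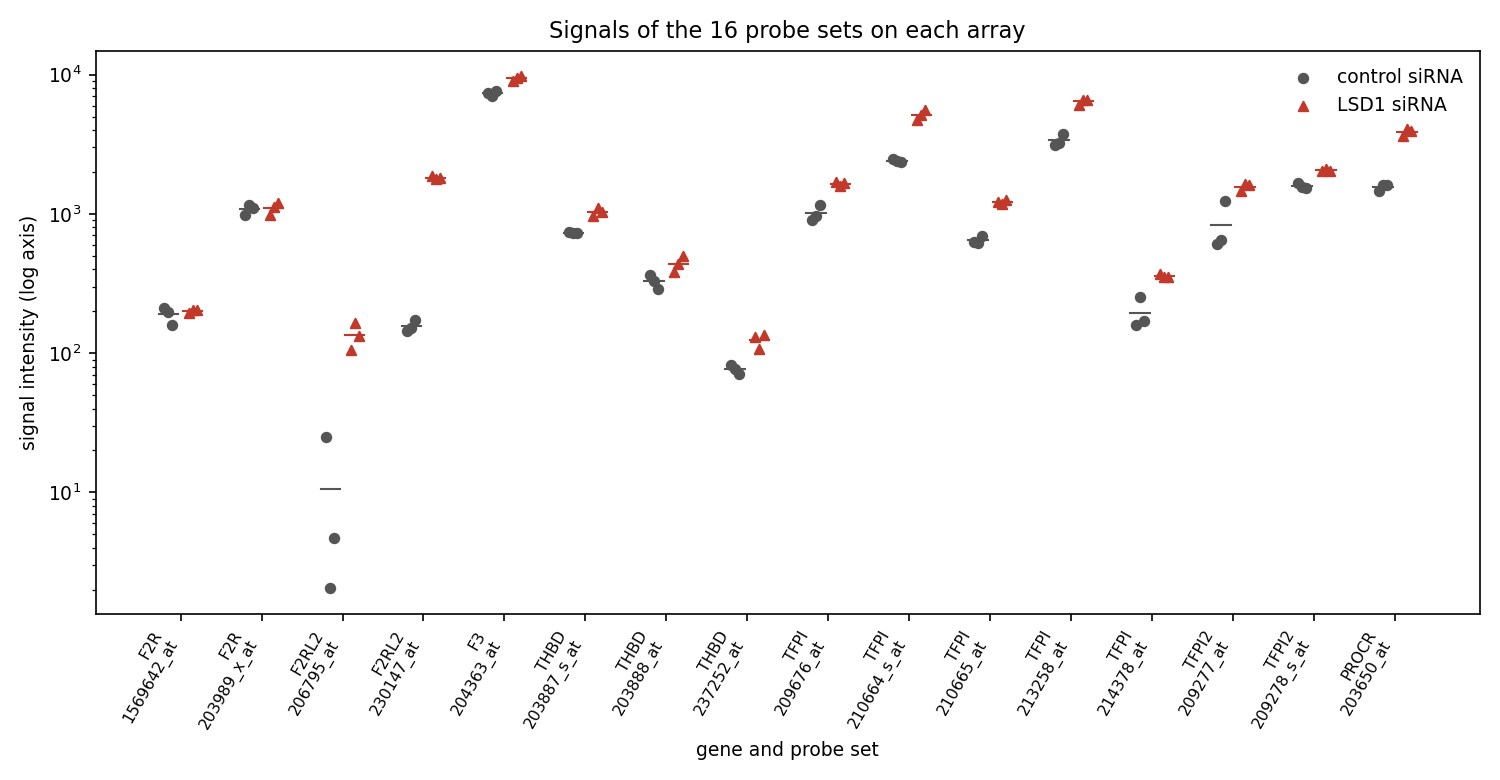
Signal intensity (log axis) of each of the 16 probe sets on the 3 control siRNA arrays (grey circles) and the 3 LSD1 siRNA arrays (red triangles), with a bar at each group mean. The groups overlap only in the 2 F2R probe sets, and the widest gap is in F2RL2, whose probe set 230147_at lies between 144 and 173 with control siRNA and between 1776 and 1874 with LSD1 siRNA.

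Among the receptors, F2RL2 rose on both of its probe sets, and F2R did not pass the test. On probe set 230147_at, F2RL2 gave signals of 144, 151 and 173 on control arrays 1, 2 and 3, and of 1874, 1776 and 1811 on LSD1 siRNA arrays 1, 2 and 3. The lowest LSD1 siRNA array was 10.3 times the highest control array, and the spread within each group was small. The mean rose from 156 ± 14.9 to 1820.3 ± 49.8 (SD, n = 3), a ratio of 11.7, with a log2 difference of 3.43 ± 0.09 (here and below, standard error from limma). Of the 13822 genes tested it had the 9th largest rise. F2RL2 encodes a receptor that thrombin can cut and that is known mainly as a partner of other receptors of the family.

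The other F2RL2 probe set, 206795_at, was dim in the control cells. It read 24.9, 2.05 and 4.70 on the control arrays and 105, 166 and 133 on the LSD1 siRNA arrays, again without overlap. Control array 1 stood above the other 2 control arrays, and no ratio is given against control signals this dim. Its log2 difference was 2.64 ± 0.36 (SE), and it became 4.12 with a constant of 1 and 1.47 with a constant of 60, so the size on this scale follows the constant. Its control mean of 10.6 is under the filter on low signals, about 28.0, and it passed that filter through the LSD1 siRNA arrays.

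F2R, the main thrombin receptor, was measured by a pair of probe sets. On 203989_x_at, whose suffix marks possible cross-hybridisation, the control arrays read 976, 1157 and 1108 and the LSD1 siRNA arrays 979, 1123 and 1189. The groups overlap almost fully, and the log2 difference was 0.02 ± 0.09 (SE). The dimmer set 1569642_at read 211, 199 and 159 with control siRNA and 196, 204 and 205 with LSD1 siRNA, a log2 difference of 0.09 ± 0.15 (SE). The sign of either value turned when certain single arrays were left out: 203989_x_at gave -0.050 with control replicate 1 left out and -0.039 with LSD1 siRNA replicate 3 left out, and 1569642_at gave -0.020 without replicate 3 of the control. F2RL3, the remaining receptor of the family, which is not among the members, had signals of 9.38 ± 7.34 and 7.56 ± 4.10 (SD, n = 3) and lay under the filter.

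F3 was bright in both groups and modestly higher with LSD1 siRNA. Its 1 probe set read 7431, 7070.0 and 7574 on the control arrays and 9058, 9445 and 9717 on the LSD1 siRNA arrays. The groups do not overlap, with the lowest LSD1 siRNA array 1.196 times the highest control array. The mean went from 7358 ± 260 to 9407 ± 331 (SD, n = 3), a ratio of 1.28 and a log2 difference of 0.35 ± 0.06 (SE). In mean signal over all arrays this probe set stood above 98.1% of the probe sets on the array.

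TFPI, the inhibitor of tissue factor, rose on all 5 of its probe sets. On the brightest, 213258_at, the control arrays read 3119, 3253 and 3761 and the LSD1 siRNA arrays 6087, 6571 and 6590.2. The mean went from 3378 ± 339 to 6416 ± 285 (SD, n = 3), a ratio of 1.90 and a log2 difference of 0.93 ± 0.08 (SE). The other sets gave log2 changes of 1.08 (210664_s_at), 0.90 (210665_at), 0.86 (214378_at) and 0.70 (209676_at), with ratios between 1.63 and 2.13. None of the 5 overlapped between the groups, although control array 2 stood high on 214378_at (251, against 160.2 and 171) and control array 3 on 209676_at (1154, against 908 and 964). The ratio of the tissue factor inhibitor was thus larger than that of tissue factor itself on every TFPI probe set (1.63 or more against 1.28), a difference that was not tested.

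TFPI2 rose on both probe sets, with a larger value on 1 of them, a difference that was not tested. Set 209278_s_at read 1670.0, 1571 and 1531 with control siRNA and 2045, 2094 and 2045 with LSD1 siRNA, a log2 difference of 0.37 ± 0.06 (SE) in the gene test. Set 209277_at read 612, 654 and 1239 with control siRNA and 1465, 1629.7 and 1619 with LSD1 siRNA. There control array 3 lies near the LSD1 siRNA arrays and far from the other 2 control arrays, which 209278_s_at does not show. The log2 difference of 209277_at was 0.97 ± 0.20 (SE), and 1.29 without control replicate 3. In the unmoderated test this set did not pass. The mean of both sets gave 0.67.

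**Figure D2:**
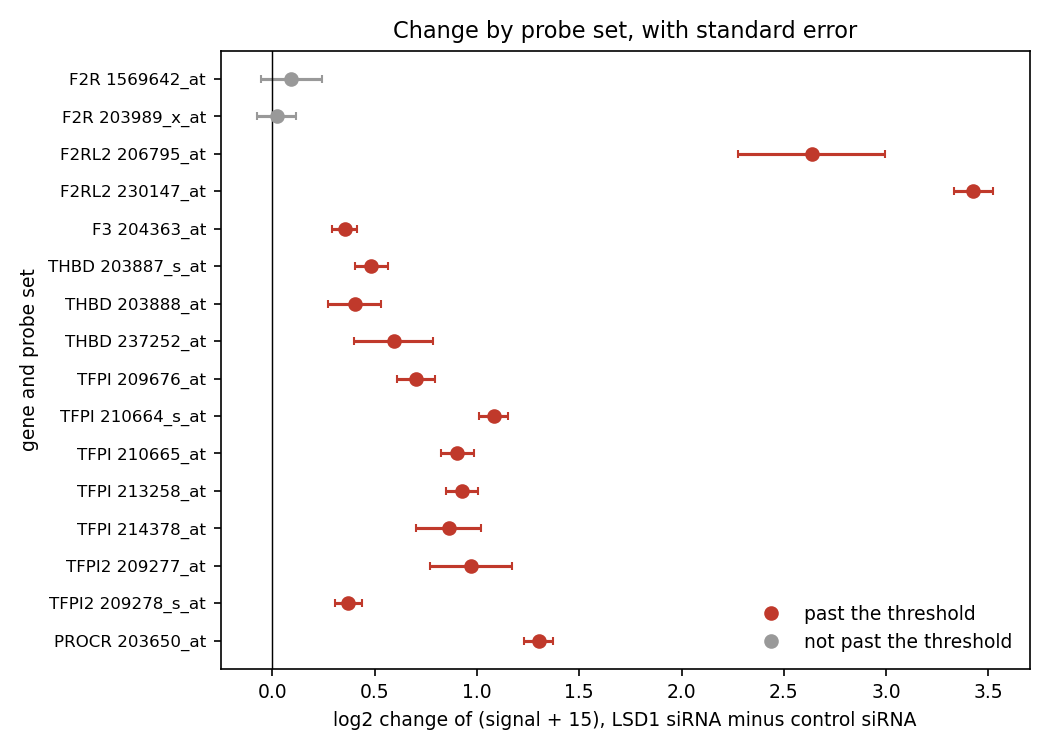
Log2 change of signal + 15 (LSD1 siRNA minus control siRNA) for each of the 16 probe sets, with its standard error from limma (n = 3 arrays a group); red points passed the threshold and grey points did not. The F2RL2 sets lie at 2.64 and 3.43, PROCR at 1.30, the 5 TFPI sets between 0.70 and 1.08, and both F2R sets near 0.

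The receptors of the protein C pathway rose as well. PROCR read 1457, 1603 and 1624 on the control arrays and 3629, 4056 and 3927 on the LSD1 siRNA arrays. Every LSD1 siRNA array was at least 2.23 times the highest control array. The mean went from 1561 ± 90.9 to 3871 ± 219 (SD, n = 3), a ratio of 2.48 and a log2 difference of 1.30 ± 0.07 (SE). PROCR has 1 probe set here, so its value has no check by another region of the transcript.

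THBD rose on its brightest probe set, and its 2 dimmer sets passed less firmly. The brightest, 203887_s_at, read 745, 733 and 726 with control siRNA and 966, 1099 and 1039 with LSD1 siRNA, without overlap. Its mean went from 735 ± 9.35 to 1035 ± 66.8 (SD, n = 3), a log2 difference of 0.48 ± 0.08 (SE). Set 203888_at read 363, 332 and 289 against 380.4, 437 and 501, where control array 1 and LSD1 siRNA array 1 nearly meet, and its log2 difference was 0.40 ± 0.13 (SE). It did not pass without control replicate 2 (0.41), control replicate 3 (0.32), LSD1 siRNA replicate 2 (0.40) or LSD1 siRNA replicate 3 (0.31), nor with no filter, no intensity trend or the unmoderated test (limma adjusted p = 0.0528, 0.0735 and 0.131). The dimmest set, 237252_at, read 82.3, 77.3 and 71.0 against 131, 106 and 134, a log2 difference of 0.59 ± 0.19 (SE). It did not pass without control replicate 2 (0.60), control replicate 3 (0.55), LSD1 siRNA replicate 1 (0.55) or LSD1 siRNA replicate 3 (0.54), nor with no filter or with the replicate block (limma adjusted p = 0.0856 and 0.0511).

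The median log2 change was 0.48 over the 7 measured genes and -0.02 over all genes tested. The standard errors of the members' genes, 0.06 to 0.15, bracket the median of 0.11 over all genes. Over the 6 arrays, the 3 genes whose profile was nearest to that of F2RL2, by root mean square difference of log2 values centred on the control mean, were MLLT11 (a difference of 0.08), IL1B (0.13) and ODAPH (0.18). Their log2 changes were 3.38, 3.32 and 3.37. With 2 groups of arrays, such likeness says little more than that the genes changed by a like amount.

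The members' surroundings in the genome were examined through RefSeq (GRCh38.p14). F2RL2, F2R and F2RL1 lie next to each other, and F2RL2 lies within the bounds of IQGAP2. IQGAP2 was dim in both groups, at 9.84 ± 6.81 and 14.0 ± 13.5 (SD, n = 3), under the filter on low signals. Of 26 protein-coding genes that overlap a member or are the nearest 2 on either side, 13 could be tested, of which 4 were higher and 2 lower, against 41.0% of all genes in either direction. This choice of genes, by position, was made after the data were seen. GNG11, a G protein gamma subunit gene beside TFPI2, rose from 1946 ± 154 to 3317 ± 69.1 (SD, n = 3), and the log2 difference was 0.77 with a limma adjusted p of 4.40e-06. EDEM2, beside PROCR, had a log2 change of 0.72 (limma adjusted p = 1.94e-05). The others were ABCD3 (0.17) near F3 and VPS50 (0.26) near TFPI2, both higher, and NXT1 (-0.38) near THBD and MMP24OS (-0.41) near PROCR, both lower.

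Genes of 6 related lists give the wider pathway. Together they hold 153 genes besides the members, of which 111 were tested, 36 rose and 14 fell. These 50 genes stand beside a share of 41.0% of all genes tested that passed in either direction, and nothing is read from their count. Of 29 coagulation factors and plasma anticoagulants, most of them liver products, 14 passed the filter. In limma 3 rose and none fell, with a median log2 change of 0.11. The 3 are 21.4% of those tested, against 19.8% of all genes that rose and 41.0% that passed in either direction. At an unadjusted p of 0.05 and in the unmoderated test, 1 gene of that list was lower, F13A1 (-0.59), the gene of a factor XIII subunit. PROS1, the protein S gene and a cofactor of protein C and TFPI, rose from 345 ± 49.8 to 1176 ± 54.0 (SD, n = 3), and the log2 difference was 1.74 (limma adjusted p = 2.87e-07). SERPIND1, which encodes the thrombin inhibitor heparin cofactor II, rose from 37.6 ± 10.3 to 271 ± 12.1 (log2 change 2.46, limma adjusted p = 2.39e-06). MCFD2, a cargo receptor subunit for factors V and VIII, rose by 0.79. The proteases that work with the members were dim: F2 (prothrombin) had 11.01 ± 2.16 and 7.65 ± 2.22, F10 14.99 ± 15.8 and 12.96 ± 9.72, and F7 37.2 ± 4.50 and 43.4 ± 16.1 (SD, n = 3), the last with a log2 change of 0.12 that did not pass.

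Some other proteases able to cut the receptors passed the filter on low signals, and several of these were dim. Of 28 listed, 13 were tested, and the rest had no probe set or lay under the filter. In limma 3 rose, which is 23.1% of those tested. Of all genes tested 19.8% rose and 41.0% passed in either direction, so this count of rises shows nothing particular to these proteases. None fell in limma, at an unadjusted p of 0.05 or in the unmoderated test, and the median log2 change was 0.18. CTSS, the cathepsin S gene, rose from 237 ± 22.7 to 1529 ± 110 (SD, n = 3; log2 change 2.61, limma adjusted p = 8.78e-09). MMP1, a collagenase known to cut F2R, had a log2 change of 2.58. PRSS3, a trypsinogen gene, was at 0.95 on a probe set with the x suffix, and near-identical trypsinogen genes could share that signal.

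Of 31 tested genes of receptor coupling, arrest and trafficking, 7 rose and 6 fell, with a median of -0.04. That is 41.9% of them, near the 41.0% of all genes tested that passed in either direction, so the count shows nothing particular to these genes. RGS4, which shortens G protein signals, rose by 1.35 (limma adjusted p = 4.34e-06), the G protein alpha gene GNA15 by 0.76 and the receptor kinase gene GRK5 by 0.67, while GNA11 changed by -0.65 (limma adjusted p = 4.55e-05). Chosen after their values were seen, further alpha subunits through which these receptors can act were GNAQ at 0.64, which rose, GNA12 and GNA13 at -0.31 and -0.44, which fell, and GNAI1 (0.20), GNAI2 (-0.0043) and GNAI3 (-0.06), which did not pass. Of 15 tested partners of the protein C and thrombomodulin pathway, 5 rose and 1 fell, a share near that of all genes, with a median of 0.23. Besides PROS1, these included SPHK1 (0.67), a sphingosine kinase gene, SERPINA1 (1.21), the antitrypsin gene, and ANGPT1 (1.09), an angiopoietin gene. PROC, the gene of protein C itself, had mean signals of 3.25 and 9.41, under the filter.

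Transcripts known to be induced by thrombin or receptor-activating peptides rose more often than they fell. Of 23 tested, 16 rose and 3 fell, with a median of 0.60. In all 82.6% of them passed, against 41.0% of all genes tested, of which 19.8% were higher and 21.3% lower. The list was drawn up with the rise of inflammatory genes in these arrays known, so neither its count nor its direction is independent evidence. CXCL8 rose from 5646 ± 241 to 29474 ± 2807, CXCL1 from 4414 ± 80.0 to 23840.4 ± 890 and IL6 from 4544 ± 353 to 28599 ± 1563 (SD, n = 3), log2 changes of 2.38, 2.43 and 2.65. These cytokine genes also answer to many other stimuli. EGR1, an immediate response gene of thrombin, was at -0.37, which did not pass.

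Transcription factors reported to act on F3 or THBD showed no common direction: of 20 tested, 4 rose and 5 fell (45.0%, against 41.0% of all genes), with a median of -0.10. KLF2, an activator of THBD in endothelium, fell from 1277 ± 250 to 605 ± 68.8 (SD, n = 3), and the log2 difference was -1.05 (limma adjusted p = 6.58e-05). SP1, which binds the GC box, changed by -0.46 and HSF1, the heat shock factor gene, by -0.77, while MEF2C rose by 0.55. Chosen after their values were seen, the AP-1 genes among them were JUN at 0.34, which rose, FOS at -0.67 from a dim signal, which fell, and JUNB (0.11), JUND (-0.09) and FOSL1 (-0.13), which did not pass. The NF-kappaB genes RELA (-0.10), REL (-0.04) and NFKB1 (-0.12) did not pass either.

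**Figure D3:**
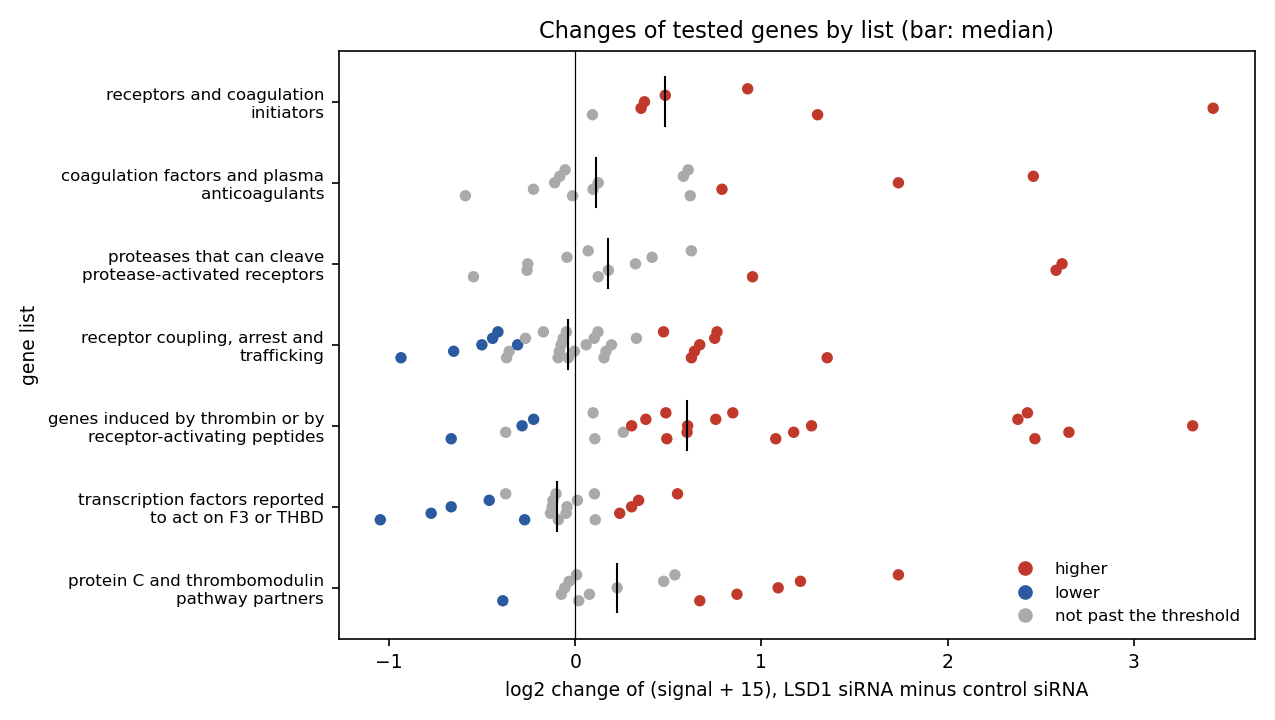
Log2 change of signal + 15 (LSD1 siRNA minus control siRNA) of each tested gene, by list, with 1 point a gene (red higher, blue lower, grey not past the threshold) and a bar at the list's median. F2RL2 stands at the far right of the top row at 3.43, and the medians of the other lists run from -0.10 to 0.60.

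THBD, PROCR and TFPI are also known from endothelial cells, so markers of those and of other cells were listed. The summed signal of 14 endothelial markers was 2590.3 to 2806 on the control arrays and 3379.5 to 3684 on the LSD1 siRNA arrays. Most of it came from ESAM and ROBO4, which rose by 0.42 and 0.57 and were the only 2 of 4 tested markers to pass. That is 50% of them, against 41.0% of all genes tested that passed in either direction, and nothing is read from this count. Of the endothelial genes under the filter, CDH5 (6.63 and 11.9), CLDN5 (9.12 and 10.5) and EMCN (17.1 and 7.28) were near the floor in both groups (mean signals, control then LSD1 siRNA). VWF (32.2 and 15.4), TEK (12.6 and 24.8) and ERG (10.8 and 35.8) were dim and not tested either. The control mean of VWF and the LSD1 siRNA mean of ERG were above 28.0. PECAM1 stood at 156 ± 29.5 and 143 ± 2.19 and KDR at 72.8 ± 16.2 and 55.6 ± 24.99 (SD, n = 3), neither past the test. Of the platelet and leukocyte markers, 4 and 7 were tested with limma and none passed, against the same 41.0% of all genes. With so few tested, nothing is read from these counts. At an unadjusted p of 0.05, 0 platelet and 3 leukocyte markers were higher, and in the unmoderated test 0 and 1. The brightest were GP1BA (53.5 and 63.1), PF4 (41.7 and 59.1), CSF1R (137 and 189) and FCER1G (51.5 and 79.0). Their summed signals were 176 to 389 and 480.0 to 531 with control siRNA, and 309.6 to 362 and 616 to 641 with LSD1 siRNA, and their part in the members' changes was not tested.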

How the data were processed

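RNA of 6 cultures was hybridised to Affymetrix arrays, 2.5 ug of total RNA per array. The deposited values are linear signal intensity for 54675 probe sets, and GCOS, Affymetrix Expression Console 1.1 and MAS5 are named in the submitters' processing notes. Array scaling is already in the values, so differences in total RNA per cell are removed, and dim MAS5 signals are noisy. No detection calls were used. Symbols came from the platform annotation, checked by gene identifier against RefSeq. Of the probe sets, 41097 have 1 symbol, 1801 several and 11777 are not listed; 62 control sets were left out.

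Values were taken as log2(signal + 15). The filter kept features whose mean exceeded the 40th percentile over the array, near a signal of 28.0. A gene was represented by its probe set of highest mean, x-suffix sets only where it had no other. Groups were compared over all genes, and over all probe sets, with limma 3.58.1 (R 4.3.3; lmFit, eBayes with intensity trend, two-sided, Benjamini-Hochberg at 0.05). The test was tested on simulated data. Members, lists and tests were chosen with earlier results of these data known. Genes named are all members, KDM1A, F2RL3, F2, F7, F10, MMP1 and the 3 genes nearest to F2RL2. Also named are up to 4 genes of smallest p from each pathway list, and the brightest and up to 2 called markers of each marker list. Other genes named, such as EGR1, PROC, F13A1, CDH5 and KDR, were chosen after their values were seen, also where this is not stated beside them. Alternatives covered leaving out each array, an unmoderated test, averaged probe sets, a replicate block, no intensity trend, median centring or quantile normalization, other filters and constants of 1 and 60.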

Additional observations from a re-analysis of the deposited data

How the results depend on the processing

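The 6 member genes that rose passed under each of the 16 alternatives run, with log2 changes of 3.03 to 3.54 for F2RL2, 1.253 to 1.35 for PROCR, 0.87 to 1.01 for TFPI, 0.44 to 0.53 for THBD, 0.34 to 0.67 for TFPI2 and 0.33 to 0.38 for F3. F2R ranged from -0.020 to 0.17 and turned below 0 without control replicate 3 (-0.020, on 1569642_at); its set 203989_x_at, which ran up to 0.099, did so without control replicate 1 (-0.050) or LSD1 siRNA replicate 3 (-0.039). The count of member probe sets past the threshold ran from 12 to 14, the losses being 1 TFPI2 set and the 2 dimmer THBD sets, and at the 60th percentile filter 2 sets were no longer tested. The count over all genes ran from 4255 in the unmoderated test to 5739. Replicate numbers did not pair the arrays: deviations of same-numbered arrays correlated at 0.01, -0.01 and 0.02. With the replicate block, 5679 genes, all 6 member genes and 13 member probe sets passed; THBD set 237252_at did not (adjusted p = 0.0511). Low signal limits 206795_at of F2RL2, F2RL3 and the coagulation proteases.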
